A study of Mus musculus with 6 samples.

Results

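The genes described here are 9 that define B cells and their antigen receptor, taken by name from the deposited tables: Cd79a, Cd79b, Ms4a1, Cd22, Cr2, Fcer2a, Pax5, Ebf1 and Blnk. All 9 were found among the 46333 genes of each table, and all 9 were among the 12302 genes tested, which had to reach 1 FPKM in 3 or more of the 6 libraries. FPKM is a level scaled by transcript length and library depth, so levels of different genes are on 1 scale, within the limit that genes of different length differed between libraries, as described below. The libraries were made from RNA of whole mouse bone marrow, 3 from mice that went through 4 weeks of chronic unpredictable mild stress (CUMS, which models depression in rodents by mild stressors that change from day to day), and 3 from control mice that are labelled as negative controls. The labels give no strain, sex or age, and they do not say whether a library is 1 animal or a pool, so the p-values below reflect library-to-library spread, which may be technical. The series title names vasopressin and myelopoiesis, and the comparison here asks whether B cell genes differed in the same marrow.

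B cells are made in the marrow. The transcription factors EBF1 and PAX5 commit a progenitor to the lineage and hold it there, and they switch on Cd79a, Cd79b and Blnk. CD79A and CD79B form the signalling pair of the B cell receptor, and BLNK is the adaptor that carries the signal from the kinase SYK to phospholipase C. CD22 damps that signal, MS4A1 (CD20) is a surface protein of B cells from the pre-B stage on, and CR2 (CD21) and FCER2A (CD23), receptors for complement and for IgE, mark mature B cells.

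None of the 9 genes passed the test between CUMS and control marrow (limma on log2(FPKM + 1), Benjamini-Hochberg adjusted p under 0.05), where 1.07% of all tested genes did (76 towards higher and 56 towards lower; 66 and 101 when every library was first scaled to the same total, and 93 and 49 with haemoglobin genes left out of that total). Cd79a and Blnk were lower in every CUMS library than in every control library, as were 12.1% of all tested genes, and Cd79b was lower within each set of libraries that shared a code in the file headers. These 3 genes passed, towards lower, when that code was added to the fit, where 7.31% of all tested genes did. With the replicate number as a block instead, Cd79a and Blnk passed and Cd79b did not (limma adjusted p = 0.0616). The surface proteins and receptors Ms4a1, Cd22, Fcer2a and Cr2 and the transcription factors Pax5 and Ebf1 passed in neither fit. In bulk marrow, a difference in which cells are present and a difference in RNA per cell cannot be told apart, and Blnk is also made by cells outside the B lineage.

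Both replicate 1 libraries carry header code 1, the remaining 4 libraries carry code 2, and no source says what the code stands for. It is given beside the results because many genes differed by it: 30.5% of tested genes differed between code 1 and code 2 at an adjusted p under 0.05 (limma, group and code in the fit). Since each group had 1 library with code 1 and 2 with code 2, the code was balanced between the groups. The libraries summed to 593129 to 653026 FPKM in CUMS and 561563 to 658595 FPKM in controls, and the 10 haemoglobin genes took 31.7% to 35.3% of that sum in CUMS and 28.8% to 29.2% in controls. Depth in reads is not recorded in the tables.

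Ordered by level, Cd79a and Cd79b stood far above the other genes in both groups. In CUMS marrow they were followed by Ms4a1, Cd22, Blnk, Fcer2a, Pax5, Ebf1 and Cr2. In control marrow the order was Ms4a1, Blnk, Cd22, Pax5, Fcer2a, Ebf1 and Cr2. Neighbours in this order whose libraries overlapped were Cd22 with Blnk and Fcer2a with Pax5 in CUMS, and Ms4a1 with Blnk, Cd22 with Pax5, and Pax5 with Fcer2a in controls. The mean log2 level of Cd79a lay above that of 98.1% of tested genes, and that of Cr2 above 16.4%. The place of Pax5 in the order went with the header code: it averaged 8.85 FPKM in code 1 and 16.9 FPKM in code 2, against 15.1 FPKM in code 1 and 14.2 FPKM in code 2 for Fcer2a.

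**Figure D1:**
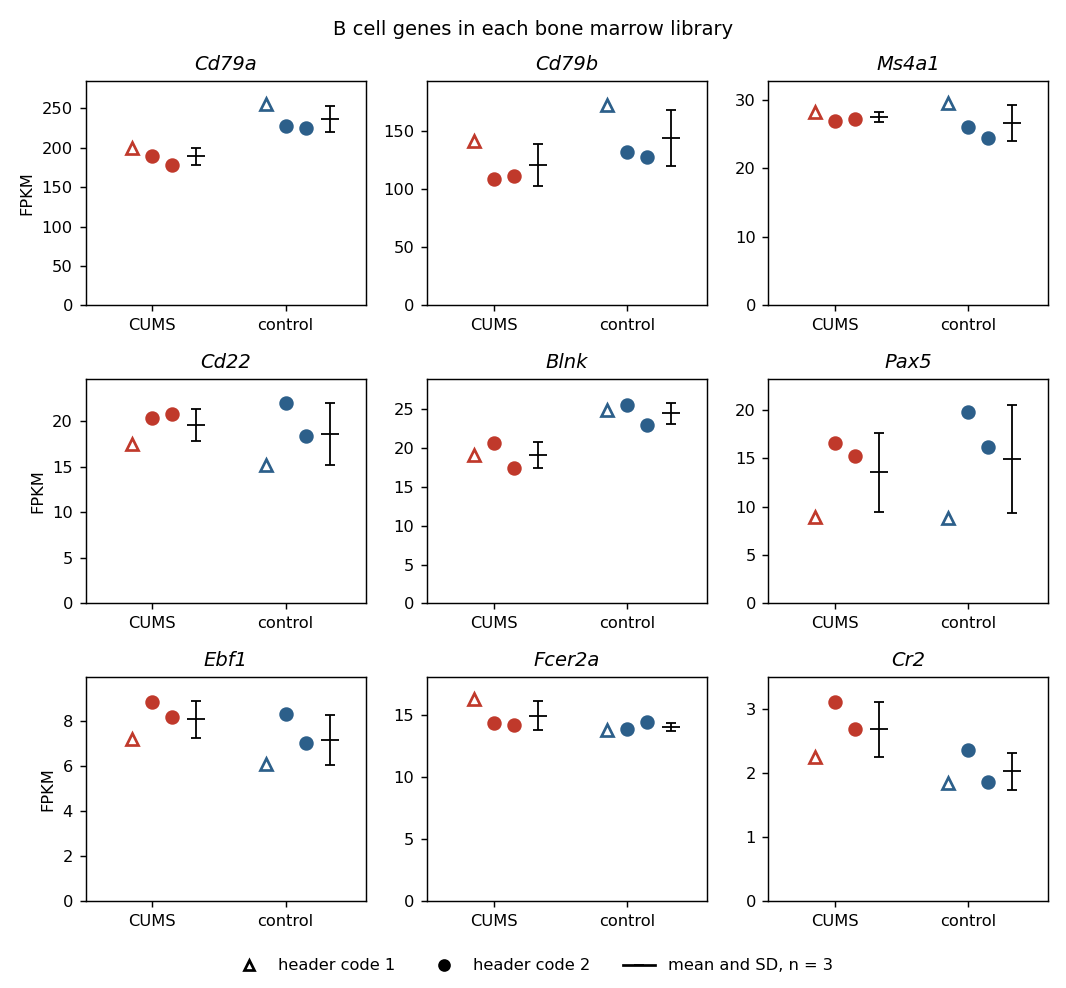
FPKM (vertical axes, each from 0) of the 9 B cell genes in the 3 CUMS and 3 control libraries. Triangles are the libraries with header code 1 and circles those with code 2; the bars give mean and SD. The CUMS libraries of Cd79a and Blnk lie below all control libraries, while both triangles of Pax5 lie far below the circles in either group.

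The promoters of Cd79a and Blnk are shown because these were the only members of the 9 whose groups did not overlap. Each line gives the 250 bases before the start annotated by RefSeq (GRCm38.p6), 5′ to 3′ on the gene's strand. The windows are chr7:24897247-24897496 on the plus strand for Cd79a and chr19:40994222-40994471 on the minus strand for Blnk. The gene positions given below are from GENCODE, which starts both genes further upstream. By those positions part of the Cd79a window and all of the Blnk window lie inside the gene. Capitals mark a match to one of the motifs searched.
Cd79a: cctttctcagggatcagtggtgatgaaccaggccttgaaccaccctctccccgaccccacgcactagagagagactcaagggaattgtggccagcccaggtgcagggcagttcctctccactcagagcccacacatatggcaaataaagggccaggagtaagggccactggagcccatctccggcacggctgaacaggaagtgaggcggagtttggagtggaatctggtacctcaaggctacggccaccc
Blnk: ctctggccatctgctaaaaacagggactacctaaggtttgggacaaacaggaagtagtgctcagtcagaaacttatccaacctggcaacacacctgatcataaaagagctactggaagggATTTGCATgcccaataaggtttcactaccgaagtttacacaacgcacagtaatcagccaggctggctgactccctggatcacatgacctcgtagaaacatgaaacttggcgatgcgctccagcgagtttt

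The motifs were the core of the EBF1 site (CCCNNGGG), the octamer bound by OCT factors with their B cell coactivator OCA-B (ATGCAAAT) and an E-box of the E proteins (CAGCTG), each on both strands; no matches overlapped. The Blnk promoter held the octamer, on the opposite strand, starting 130 bases before the RefSeq start. That motif is in 1.6% of all 32851 promoter windows of this length, the EBF1 core in 11.8% and the E-box in 13%. Promoters were found for 7 of the 9 genes, 10 windows in all. Besides Blnk, a window of Cd22 held the EBF1 core and 1 of the 3 windows of Fcer2a the E-box. The Cd79a window held none of these letter strings, which says nothing about binding of the factors there.

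Of the receptor's signalling pair, Cd79a (chromosome 7, 24897381 to 24902197, GRCm38) had 199, 189 and 178 FPKM in CUMS libraries 1 to 3, against 255, 228 and 225 FPKM in control libraries 1 to 3. The groups did not overlap, and the highest CUMS value and the highest control value were both in the library with code 1. The means were 189 ± 10.5 FPKM in CUMS and 236 ± 16.3 FPKM in controls (SD, n = 3 each). The log2 change was −0.32 (SE 0.0981, 95% interval −0.55 to −0.09, limma adjusted p = 0.184). With the header code in the fit the limma adjusted p was 0.0128, and with the replicate number as a block it was 0.0360.

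Cd79b (chromosome 11, 106311341 to 106314762) had 141, 109 and 111 FPKM in CUMS libraries, against 172, 132 and 128 FPKM in control libraries. The groups overlapped, because the code 1 library was the highest of each group. Within code 1 the CUMS library was lower, and within code 2 both CUMS libraries were below both control libraries. The means were 120.5 ± 18.1 FPKM in CUMS and 144 ± 24.3 FPKM in controls (SD, n = 3 each), a log2 change of −0.25 (SE 0.152, 95% interval −0.61 to 0.10, limma adjusted p = 0.487). The limma adjusted p was 0.0244 with the code in the fit and 0.0616 with the replicate block. The ratio of Cd79a to Cd79b was 1.41, 1.74 and 1.6 in CUMS libraries and 1.48, 1.72 and 1.76 in control libraries, so the proportion of the partner transcripts overlapped between the groups.

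The adaptor Blnk (chromosome 19, 40928927 to 40994535) had 19.1, 20.7 and 17.4 FPKM in CUMS libraries, against 24.9, 25.6 and 22.9 FPKM in control libraries. The groups did not overlap, and the code 1 library lay between the other libraries in each group. The means were 19.1 ± 1.63 FPKM in CUMS and 24.5 ± 1.36 FPKM in controls (SD, n = 3 each), with a log2 change of −0.34 (SE 0.0990, 95% interval −0.57 to −0.11, limma adjusted p = 0.161). The limma adjusted p was 0.0325 with the code in the fit and 0.0336 with the replicate block.

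For all tested genes, 12.1% had every CUMS library below every control library, against 2 of the 9 B cell genes. With the replicate block 2 of the 9, Cd79a and Blnk, passed towards lower, where 4.31% of all tested genes did, and with the header code in the fit 3 of the 9 did, where 7.31% of all tested genes did. No member passed towards higher in either fit. Cd79a also passed after scaling each library to the same total (log2 change −0.36, limma adjusted p = 0.0453), but not after the same scaling without the haemoglobin genes (−0.28, limma adjusted p = 0.106), which was chosen after the data were seen.

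**Figure D2:**
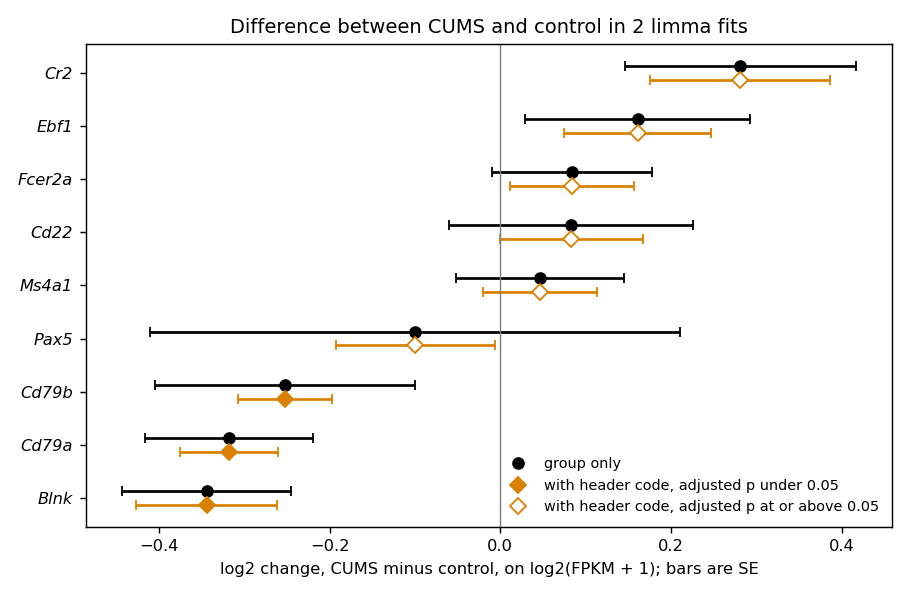
Log2 change, CUMS minus control (horizontal axis, on log2(FPKM + 1)), of each of the 9 genes with its SE, from the fit with group only (black circles) and with the header code added (orange diamonds, filled where the adjusted p was under 0.05). Blnk, Cd79a and Cd79b lie at −0.34, −0.32 and −0.25 and are the filled diamonds; Cr2 lies highest, at 0.28.

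Among surface proteins, Ms4a1 (chromosome 19, 11249675 to 11266241) had 28.2, 26.8 and 27.2 FPKM in CUMS libraries, against 29.4, 26 and 24.3 FPKM in control libraries. All 3 CUMS values lay inside the control range, and the log2 change was 0.05 (SE 0.0980, 95% interval −0.18 to 0.27, limma adjusted p = 0.877). Set against Ms4a1 within each library, Cd79a was at 7.06, 7.06 and 6.55 in CUMS and 8.65, 8.76 and 9.25 in controls, and Blnk at 0.679, 0.771 and 0.641 in CUMS and 0.846, 0.983 and 0.943 in controls. These ratios did not overlap between the groups. The ratios of Cr2 and Fcer2a to Ms4a1, and of Blnk to Cd79a, did overlap. All of them were chosen after the values were seen, the separation of the first 2 follows from the levels already given, and none was tested.

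The inhibitory receptor Cd22 (chromosome 7, 30865402 to 30880342) had 17.5, 20.3 and 20.8 FPKM in CUMS libraries, against 15.2, 22.0 and 18.4 FPKM in control libraries. The code 1 library was the lowest in both groups, and the groups overlapped (log2 change 0.08, SE 0.143, 95% interval −0.25 to 0.41, limma adjusted p = 0.842). Its exons share 463 bases with those of an antisense gene, Gm29439, and the sources used here do not say whether reads were counted by strand.

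Of the markers of mature B cells, Fcer2a (chromosome 8, 3681737 to 3694175) had 16.3, 14.4 and 14.2 FPKM in CUMS libraries, against 13.9, 13.9 and 14.4 FPKM in control libraries. Its groups overlapped, with CUMS library 1 the highest of the 6 (log2 change 0.08, SE 0.0936, 95% interval −0.13 to 0.30, limma adjusted p = 0.740). Cr2 (chromosome 1, 195136811 to 195176716), the lowest of the 9 genes, had 2.25, 3.11 and 2.70 FPKM in CUMS libraries, against 1.85, 2.36 and 1.87 FPKM in control libraries. CUMS was higher within each code, but CUMS library 1 lay below control library 2, so the groups overlapped. The log2 change of Cr2, 0.28, was the highest of the 9 (SE 0.135, 95% interval −0.03 to 0.60, limma adjusted p = 0.375, and 0.112 with the code in the fit). Its group means had a ratio of 1.32, and the added pseudocount makes the log2 change weaker than that ratio implies.

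Of the lineage factors, Pax5 (chromosome 4, 44524757 to 44710487) had 8.92, 16.6 and 15.2 FPKM in CUMS libraries, against 8.77, 19.8 and 16.1 FPKM in control libraries. Both code 1 libraries were far below the 4 others, and the groups overlapped (log2 change −0.10, SE 0.311, limma adjusted p = 0.920). The 95% interval, −0.82 to 0.62, was the widest of the 9, and with the code in the fit the SE was 0.0933 (limma adjusted p = 0.502). Ebf1 (chromosome 11, 44617317 to 45008091) had 7.22, 8.86 and 8.19 FPKM in CUMS libraries, against 6.11, 8.34 and 7.03 FPKM in control libraries. It was also lowest in the code 1 library of each group, and its groups overlapped (log2 change 0.16, SE 0.132, 95% interval −0.15 to 0.47, limma adjusted p = 0.625).

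Some of the 9 genes thus differed more between the header codes than between the stress groups. At an adjusted p under 0.05, 3 of the 9 differed between the codes, near the share of all tested genes (30.5%). Pax5 was lower in code 1 by a log2 difference of −0.86 (SE 0.0990, limma adjusted p = 0.00121), Cd22 by −0.30 (SE 0.0886, limma adjusted p = 0.0355), and Cd79b was higher by 0.38 (SE 0.0585, limma adjusted p = 0.00339). In Pax5 the level in code 1 was 0.562 of the mean in code 2 among CUMS libraries and 0.489 among control libraries. Across the 9 genes the code difference tended to fall with exon length, though not in strict order. Cd79b, with 1195 bases of exon the shortest, stood highest and Pax5, with 8004 bases the longest, lowest (Spearman's rho −0.867 across the 9 genes, a description chosen after the values were seen). Across 10717 tested genes with a length, which share the same 6 libraries, rho was −0.593. With these genes divided into 5 bins of exon length, the median code difference was 0.19 in the shortest bin and −0.32 in the longest. Pax5 lay −0.53 from the median of its bin.

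**Figure D3:**
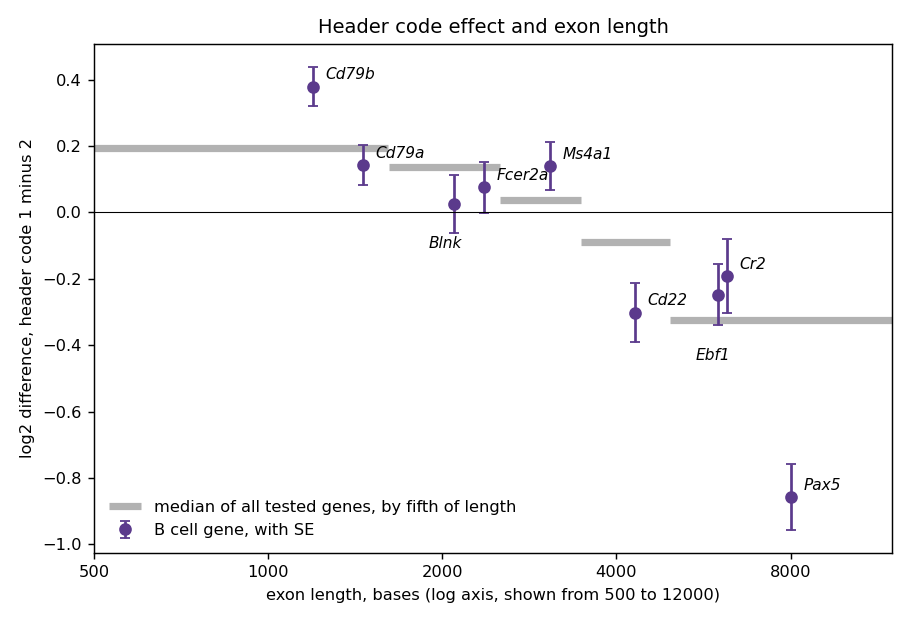
Log2 difference between libraries with header code 1 and code 2 (vertical axis) against exon length in bases (horizontal log axis) for the 9 B cell genes, with SE. Grey bars give the median of all tested genes in each of 5 bins of exon length, from 0.19 to −0.32; Pax5, at −0.86, lies below the bar of its bin and Cd79b, at 0.38, above its own.

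The change between CUMS and control also had a weak relation with length: rho was 0.122 across the tested genes, with a median log2 change of −0.04 in the bin of the shortest exons and 0.04 in the bin of the longest. Across the 9 genes rho was 0.633, and Cd79b, Cd79a and Blnk, with 1195, 1457 and 2097 bases of exon, were the 3 shortest. The log2 changes were −0.25 for Cd79b, −0.32 for Cd79a and −0.34 for Blnk. The medians of their bins were −0.04 for Cd79b and Cd79a and −0.03 for Blnk. The part of length in the lower levels of these 3 genes was not tested.

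The 9 genes did not vary as a unit over the libraries, with the header code left in their values. Their mean log2 level was lowest in both libraries with code 1 (4.49 and 4.51, against 4.53 to 4.68 with code 2). The part of the code in the correlations given here was not tested. The correlation of a gene's log2 level with the mean of the other 8, over 6 libraries, ran from −0.617 for Fcer2a to 0.561 for Cd22. Cd79a and Blnk went together (Pearson's r 0.906), as did Cd22 and Ebf1 (0.925), and Cd79b and Ebf1 went opposite ways (−0.876); these are descriptions of 6 libraries in 2 groups and 2 codes. The genes most like the mean of the 9 were Klhl14 (r 0.985), Ankrd40 (0.984), Zfp518a (0.981), Ypel2 (0.978), Prdm4 (0.976), Asb7 (0.974), Igfbp5 (0.972), Rbl2 (0.971), Mbd5 (0.966) and Zscan26 (0.966). None of these 10 passed the test between the groups, with limma adjusted p-values from 0.735 to 0.933. They were chosen for following the mean of the 9 over the same 6 libraries, and that mean overlapped between the groups. The lack of a difference in these 10 genes therefore follows from how they were chosen and is no added result.

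Other genes of the receptor pathway were described through lists of their own; in these 6 B lineage lists no gene passed in the fit with group only. The counts below are to be read against the shares of all tested genes: with the code in the fit 7.31% passed towards lower and 6.06% towards higher, with the replicate block 4.31% towards lower and 3.49% towards higher, and 12.1% had every CUMS library below every control library. Of all 12302 tested genes 6186 had values towards lower, which is the share to set beside the same count in each list. Of the 20 tested genes of the signalling chain 14 had values towards lower. Their median log2 change was −0.09, against −0.0017 over all tested genes. The phospholipase Plcg2, the enzyme that acts after BLNK, averaged 40.2 ± 1.54 FPKM in CUMS and 46.4 ± 2.72 FPKM in controls (SD, n = 3 each; log2 change −0.20, limma adjusted p = 0.333, and 0.0553 with the code), and Fyn, a Src family kinase, 8.11 ± 0.149 FPKM in CUMS and 9.76 ± 0.348 FPKM in controls (−0.24, limma adjusted p = 0.258, and 0.0589 with the code). Bank1, a B cell scaffold protein, went the other way, with 11.7 ± 0.469 FPKM in CUMS and 8.73 ± 0.909 FPKM in controls (0.39, limma adjusted p = 0.14, and 0.0290 with the code). With the code in the fit 1 of the 20 passed towards higher, near the share of all tested genes (6.06%), and 3 towards lower (7.31% of all). With the replicate block 1 of the 20 passed towards higher, Bank1 (limma adjusted p = 0.0486), and 1 towards lower, near the shares of all tested genes (3.49% and 4.31%).

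Of 11 tested inhibitors of the receptor signal 8 had values towards lower (median −0.14). Dok3, an adaptor that restrains signalling and is also present in myeloid cells, averaged 114 ± 12.9 FPKM in CUMS and 146 ± 6.63 FPKM in controls (log2 change −0.36, limma adjusted p = 0.177, and 0.0178 with the code in the fit). Fcrla, an intracellular Fc receptor-like protein of B cells, averaged 36.5 ± 3.43 FPKM in CUMS and 43.7 ± 4.70 FPKM in controls (−0.25, limma adjusted p = 0.339, and 0.0304 with the code). Lair1 went the other way, with 7.82 ± 0.560 FPKM in CUMS and 6.64 ± 0.771 FPKM in controls (0.21, limma adjusted p = 0.431, and 0.122 with the code). With the code in the fit 3 of the 11 passed, all towards lower (7.31% of all tested genes), and with the replicate block Dok3 alone did (limma adjusted p = 0.0401; 4.31% of all tested genes).

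Of 17 other transcription factors of the lineage 11 had values towards lower (median −0.18). Spib, an ETS factor of B cells and plasmacytoid dendritic cells, averaged 48.9 ± 1.88 FPKM in CUMS and 68.7 ± 7.25 FPKM in controls (log2 change −0.48, limma adjusted p = 0.0786, and 0.00564 with the code in the fit). Pou2af1, which encodes the coactivator OCA-B, averaged 35.6 ± 1.63 FPKM in CUMS and 45.5 ± 1.91 FPKM in controls (−0.35, limma adjusted p = 0.117, and 0.0120 with the code). Irf8, a factor of B cells, monocytes and dendritic cells, averaged 61.6 ± 3.30 FPKM in CUMS and 74.0 ± 1.2 FPKM in controls (−0.26, limma adjusted p = 0.202, and 0.0281 with the code). None of these 3 overlapped between the groups, which is no added result, because they were named for their small p in the fit with group only. Of the 17 genes 5 had every CUMS library below every control library (12.1% of all tested genes). With the code in the fit 5 of the 17 passed, all towards lower (7.31% of all). With the replicate block 3 did, Spib (limma adjusted p = 0.0167) and Pou2af1 (0.0285) among them (4.31% of all), while Irf8 did not pass (limma adjusted p = 0.0589).

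The list of pro-B and pre-B cell genes had the lowest median of the 6, −0.31, with 10 of 14 tested genes towards lower. Rag2, of the recombinase that joins antigen receptor segments, averaged 1.21 ± 0.0435 FPKM in CUMS and 2.21 ± 0.124 FPKM in controls (log2 change −0.53, limma adjusted p = 0.0725, and 0.0114 with the code in the fit). Its CUMS values lay just above the filter of 1 FPKM, and the added pseudocount makes the log2 change weaker than the ratio of these means. Dntt, the terminal transferase that adds bases at the joins, averaged 10.3 ± 0.955 FPKM in CUMS and 14.7 ± 2.39 FPKM in controls (−0.48, limma adjusted p = 0.151, and 0.0161 with the code). Vpreb3, a chaperone of the pre-B and immature stages, averaged 66.5 ± 9.03 FPKM in CUMS and 86.1 ± 10.7 FPKM in controls (−0.37, limma adjusted p = 0.243, and 0.00696 with the code). Il7r, the interleukin 7 receptor, which T cells and early B cells share, averaged 13.2 ± 1.08 FPKM in CUMS and 9.63 ± 1.21 FPKM in controls (0.42, limma adjusted p = 0.154, and 0.0138 with the code). With the code in the fit 1 of the 14 passed towards higher (6.06% of all tested genes) and 7 towards lower (7.31% of all). With the replicate block 1 of the 14 passed towards higher (3.49% of all tested genes) and 4 towards lower (4.31% of all). The limma adjusted p-values were 0.0247 for Il7r, 0.0246 for Rag2, 0.0226 for Dntt, 0.0228 for Vpreb3 and 0.0276 for Rag1. The first 4 were named for their small p in the fit with group only, and the block leaves the log2 changes as they were, so these passes are not separate support.

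Of 20 genes of mature and follicular B cells 13 had values towards lower (median −0.10), and with the code in the fit 1 passed towards higher and 2 towards lower, both near the shares of all tested genes (6.06% and 7.31%). Ighd, the heavy chain of the IgD that mature B cells carry, averaged 56.2 ± 0.543 FPKM in CUMS and 48.0 ± 4.18 FPKM in controls (log2 change 0.23, limma adjusted p = 0.305, and 0.0811 with the code). Ltb, lymphotoxin beta, averaged 47.2 ± 5.58 FPKM in CUMS and 61.1 ± 5.94 FPKM in controls (−0.37, limma adjusted p = 0.203, and 0.0177 with the code), and Cd74, the chaperone of MHC class II, 463 ± 35.2 FPKM in CUMS and 553 ± 11.6 FPKM in controls (−0.26, limma adjusted p = 0.286, and 0.0311 with the code). Of 8 tested plasma cell genes 5 had values towards lower (median −0.25); Jchain, which joins IgM and IgA into polymers, averaged 31.4 ± 2.53 FPKM in CUMS and 22.4 ± 4.45 FPKM in controls (0.48, limma adjusted p = 0.177, and 0.0154 with the code). Slamf7, a surface receptor of plasma cells and other leukocytes, averaged 4.46 ± 0.539 FPKM in CUMS and 6.83 ± 0.951 FPKM in controls (−0.52, limma adjusted p = 0.119, and 0.0155 with the code). With the replicate block the limma adjusted p was 0.0383 for Ltb, 0.0383 for Jchain and 0.0247 for Slamf7. In that fit 1 of the 20 mature B cell genes passed towards lower (4.31% of all tested genes). Of the 8 plasma cell genes 1 passed towards lower and 1 towards higher (3.49% of all).

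**Figure D4:**
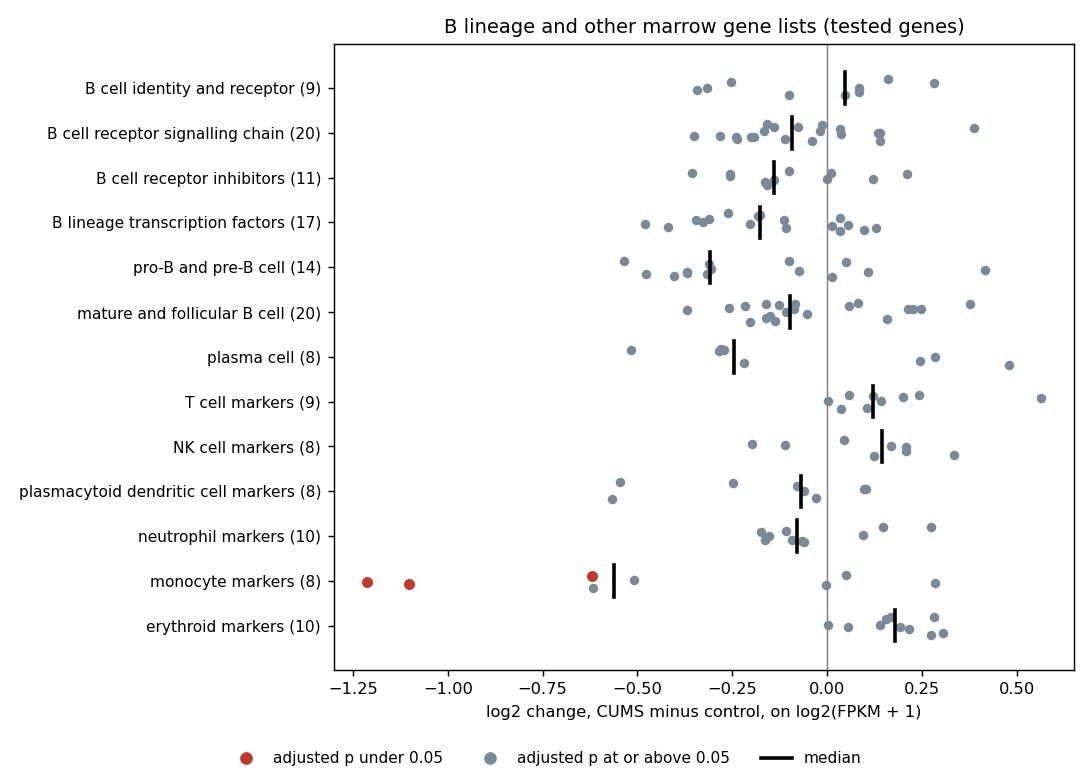
Log2 change, CUMS minus control (horizontal axis, on log2(FPKM + 1)), of each tested gene in the B cell list, 6 lists of the B lineage and 6 of other marrow cells, with the number of tested genes in brackets; black bars are medians and red points had an adjusted p under 0.05. The red points are 3 monocyte genes; the pro-B and pre-B median lies at −0.31 and that of the 9 B cell genes at 0.05.

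Markers of other marrow cells were measured beside these genes, and their part in the results above was not tested. Of the 8 monocyte markers 3 fell, Fcgr1, Cx3cr1 and Csf1r (limma adjusted p = 0.00717, 0.00817 and 0.0338; none passed without CUMS library 3 or without control library 3), where 0.455% of all tested genes fell, and the list's summed level was 905 to 993 FPKM in CUMS and 905 to 1140 FPKM in controls. Blnk, Spib, Irf8, Dok3, Il7r and Slamf7 are examples of genes above that are also made by cells outside the B lineage. The B lineage lists were not limited to genes made by B cells alone. Plasmacytoid dendritic cell markers summed to 187 to 201 FPKM in CUMS and 226 to 265 FPKM in controls, T cell markers to 32.7 to 37.0 FPKM in CUMS and 28.0 to 31.3 FPKM in controls, and NK cell markers to 87.1 to 101 FPKM in CUMS and 73.6 to 98.9 FPKM in controls. Most of the plasmacytoid sum came from Ly6d (mean 104.5 FPKM in CUMS and 124.9 FPKM in controls) and Bst2 (46.1 FPKM and 67.9 FPKM). Taken singly, 2 of these 8 markers had every CUMS library below every control library (12.1% of all tested genes), and 6, Ly6d among them, overlapped. Erythroid markers, with haemoglobin among them, summed to 191000 to 234000 FPKM in CUMS and 164000 to 195000 FPKM in controls, and neutrophil markers to 50500 to 53200 FPKM in CUMS and 47800 to 66700 FPKM in controls. No gene of the lists of plasmacytoid, T, NK, erythroid and neutrophil markers passed the test with group only (limma). With the code in the fit 5 of 8 monocyte and 3 of 8 plasmacytoid markers passed towards lower (7.31% of all tested genes), 1 of 8 monocyte, 1 of 9 T cell and 1 of 10 neutrophil markers towards higher (6.06% of all), and no NK or erythroid marker passed, so calls in that fit were not limited to the B lineage lists. Values were towards lower in 7 of 10 neutrophil, 6 of 8 monocyte, 6 of 8 plasmacytoid and 2 of 8 NK markers, beside 6186 of all 12302 tested genes. They were towards lower in no tested T cell or erythroid marker. No marker was listed at 0 in all 6 libraries. The summed level of the 9 B cell genes was 395 to 440 FPKM in CUMS and 458 to 527 FPKM in controls. Cd79a and Cd79b made up the greater part of this sum, so it largely repeats their levels and is no added result for the set. Taken singly, 2 of the 9 genes, Cd79a and Blnk, had every CUMS library below every control library, and 7 overlapped. The mean log2 level of the 9 genes, in which each gene counts equally, also overlapped between the groups.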

How the data were processed

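The authors deposited FPKM values, 1 table per library with 47561 entries, of which 46333 are genes. No label or header names the unit. It was read from the values, which are not whole and which, multiplied by exon kilobases, add up to 874742 to 917803 over the 23728 entries with a length. Per the submitters' processing notes the tools were HISAT2 2.1 and featureCounts 1.6.4, with DESeq2 2.11.40.6, bcl2fastq 2.19 and cutadapt 1.16.5, on mm10. Which of them made the values, and the use of strand, are not given in the sources used here. The lowest values showed no step worth 1 read, so the depth is unknown. Precision rests on 3 libraries per group; for a single gene 0.1 is the smallest p an exact permutation test allows.

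Groups were compared with limma 3.58.1 (R 4.3.3, mean trend) across the 12302 genes that reached 1 FPKM in 3 or more libraries, on log2(FPKM + 1), with group as the only term. Adjusted p-values are Benjamini-Hochberg over all tested genes, with a threshold of 0.05. Alternatives changed the pseudocount, filter and scaling, added the header code or replicate number, or left out 1 library. Tables and plots used Python 3.11.15 with pandas 2.3.3 and matplotlib 3.10.9. Positions and exon lengths are from GENCODE M21 (GRCm38), lengths over transcripts paired with RefSeq, and 87.1% of tested genes had one. The 9 genes and the lists were chosen with earlier results of these data known. Genes were named by rule: the 9, from each list at most 4 with the smallest p, and the 10 most correlated with the mean of the 9 at a mean log2 level of at least 1. Some list genes are given only by count, and 1 is not reported here.

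Titles give replicate numbers. Deviations from the group means correlated by 0.689, 0.452 and 0.363 between libraries of the same number, so the number entered an alternative fit as a block. Replicates 2 and 3 correlated as much when crossed (0.459 and 0.362), and no source names pairs.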

Additional observations from a re-analysis of the deposited data

How the results depend on the processing

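The number of tested genes called between CUMS and control was 132 in the fit with group only. It was 43 with no filter on low values, 199 with quantile normalization, 959 with the replicate block, 1645 with the header code as a term and 2173 in the 4 libraries of code 2 alone. Leaving out 1 library gave 17 to 262 (72, 19 and 17 without CUMS replicate 1, 2 and 3, and 262, 33 and 17 without control replicate 1, 2 and 3). Of the 9 B cell genes 0 were called with group only (limma; 2 had an unadjusted p under 0.05, Cd79a 0.0125 and Blnk 0.00893). The number was 1 after scaling to the same total and 1 with quantile normalization (Cd79a in both), 2 with the replicate block, 3 with the header code and 2 in code 2 alone (Cd79a and Cd79b). Leaving out 1 library gave 0 calls among the 9, in fits that divide the code unevenly between the groups. The replicate block changed the call of Cd79a and Blnk and of no other member.

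Over the alternatives run, the log2 change lay between −0.36 and −0.26 for Cd79a, −0.37 and −0.12 for Cd79b and −0.40 and −0.28 for Blnk, and it was above 0 in each of them for Cr2, Ebf1 and Fcer2a. With 1 library left out, Ms4a1 ran from −0.013 (without control replicate 3) to 0.1196, Cd22 from −0.0444 (without control replicate 1) to 0.2086, and Pax5 from −0.4155 to 0.1555 (without CUMS replicate 1; 0.1279 without control replicate 2). The cause of these reversals was not tested. Scaling without haemoglobin genes was chosen after the data were seen; the median over all genes was then 0.036, against −0.0387 when they were kept in the total.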
